A study of Mus musculus with 117 samples.

Results

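The inflammatory cytokine genes described here are Il6, Il1a, Il1b, Il1rn, Tnf, Il18, Il33 and Lif. They were taken by name from a mouse expression array series, with 1 probe set for each gene. Where a gene had several probe sets annotated to it alone, the one with the highest average signal was used. The 8 members are 8 of the 17097 genes that had such a probe set, and all 8 were found. Il1a, Il1b and Il1rn lie on chromosome 2, Il6 on 5, Il18 on 9, Lif on 11, Tnf on 17 and Il33 on 19.

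Cytokines are secreted signals between cells. Il1a and Il1b encode interleukin-1 alpha and beta, which act through the same receptor, and Il1rn encodes the receptor antagonist that blocks it. Il18 and Il33 encode further members of the interleukin-1 family. Il1b and Il18 are made as precursors that caspase-1 cuts in the inflammasome, whereas Il1a and Il33 are known as alarmins, held in the cell and released on damage. Tnf encodes tumour necrosis factor, an early signal of activated macrophages. Il6 and Lif encode relatives that signal through the shared receptor subunit gp130, the product of Il6st. Macrophages are known sources of Il1b and Tnf, fibroblasts of Il6, and epithelial and stromal cells of Il33.

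The series holds 117 arrays of C57BL/6 mice in 19 groups. Of these, 66 are tumours frozen as whole tissue: 6 squamous cell carcinomas of skin, 3 B-cell lymphomas, 14 bronchial papillary adenomas, 13 hepatocellular carcinomas, and adenocarcinomas of stomach (11, labelled gastric), prostate (10) and uterus (9). The other 51 are normal cells, taken from dissociated tissue and separated with magnetic beads against Prom1 (prominin-1, a membrane protein used as a stem cell marker) into Prom1-positive and Prom1-negative fractions. There were 3 positive and 5 negative samples of prostate, 3 and 7 of lung, 3 and 5 of intestine, 4 and 7 of liver, 3 and 4 of stomach, and 4 and 3 of uterus. The series' own description speaks of conditional Prom1 mutants that developed tumours, but the labels used here give no genotype, age or agent for any sample. They do not say either which samples share an animal. The p-values below therefore rest on the spread between samples, part of which may be technical. Every tumour was frozen whole and every normal sample was dissociated and sorted, so tumour state and handling cannot be told apart.

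Values are log2 expression values, on which a difference of 1 is a 2-fold change, and they are compared within a gene only. The array medians lay between 3.63 and 4.01, and a value near or under the median can be background signal. The Lif results rest on the chosen probe set alone. Its other probe sets lay above the array median in 0 and 3 of the 117 arrays, with r = -0.187 and -0.0536 to the chosen one. Prom1 RNA was higher in the positive than in the negative fraction of prostate (1.76, SE 0.41, adjusted p = 0.00244), stomach (1.65, SE 0.43, adjusted p = 0.0189) and uterus (1.46, SE 0.43, adjusted p = 0.0173). In lung, intestine and liver the Prom1 differences were 0.01, 0.53 and 0.23, with adjusted p-values of 0.999, 1 and 0.731 from limma. The fractions are named by their labels throughout. Tissue markers fell far below the normal cells in some tumours: all 5 listed stomach genes (such as Cblif, which encodes gastric intrinsic factor) in gastric adenocarcinoma, with a median difference of -7.30, and all 3 measured prostate genes in prostatic adenocarcinoma, with a median of -7.64. In hepatocellular carcinoma none of the 5 listed liver genes passed the test. These are bulk samples, in which fewer cells of a type and less RNA per cell cannot be told apart.

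Promoter sequences are shown for Il6, Il1a, Il1b and Tnf, 4 of the members that were lower in lung, prostate and uterus tumours than in normal cells, as described below. They come from RefSeq (build GRCm38.p6), run 5′ to 3′ on the gene's own strand, and span 250 bases before to 50 bases after the annotated start. The Il6 window is chr5:30012864-30013163 on the plus strand, and those of Il1a (chr2:129309923-129310222), Il1b (chr2:129371090-129371389) and Tnf (chr17:35201958-35202257) are on the minus strand. Capitals mark matches to 3 motifs searched on both strands: the NF-kB type (3 G, any 2 bases, 3 T and 2 C), TGANTCA of the AP-1 type and TATAAA, the core of the TATA box. None of these matches overlaps another in the 4 windows.
Il6: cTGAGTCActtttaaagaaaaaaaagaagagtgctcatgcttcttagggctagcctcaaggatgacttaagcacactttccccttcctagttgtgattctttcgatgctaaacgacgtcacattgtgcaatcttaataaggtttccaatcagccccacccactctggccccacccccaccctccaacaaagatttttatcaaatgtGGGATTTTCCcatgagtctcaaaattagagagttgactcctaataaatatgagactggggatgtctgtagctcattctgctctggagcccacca
Il1a: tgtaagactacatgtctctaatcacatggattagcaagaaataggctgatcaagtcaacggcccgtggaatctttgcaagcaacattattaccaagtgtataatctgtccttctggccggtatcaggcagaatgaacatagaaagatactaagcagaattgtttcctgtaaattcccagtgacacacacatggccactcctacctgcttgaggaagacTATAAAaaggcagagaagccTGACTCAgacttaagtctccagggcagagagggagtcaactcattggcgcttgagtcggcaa
Il1b: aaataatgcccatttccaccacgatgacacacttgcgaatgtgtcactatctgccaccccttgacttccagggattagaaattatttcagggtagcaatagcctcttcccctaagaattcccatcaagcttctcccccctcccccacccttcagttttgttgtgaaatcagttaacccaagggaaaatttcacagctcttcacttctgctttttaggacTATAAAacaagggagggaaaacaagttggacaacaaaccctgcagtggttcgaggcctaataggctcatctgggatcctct
Tnf: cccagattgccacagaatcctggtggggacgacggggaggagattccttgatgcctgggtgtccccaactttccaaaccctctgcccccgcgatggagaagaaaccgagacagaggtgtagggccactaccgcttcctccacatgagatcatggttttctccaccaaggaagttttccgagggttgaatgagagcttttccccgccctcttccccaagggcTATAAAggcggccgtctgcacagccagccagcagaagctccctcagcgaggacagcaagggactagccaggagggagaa
The Il6 window held GGGATTTTCC starting 44 bases before the gene's start, and TGAGTCA starting 249 bases before it. The Il1a, Il1b and Tnf windows held TATAAA 32, 31 and 29 bases before the start, and Il1a also held TGACTCA 12 bases before it. Among all 32851 promoter windows of this length, the NF-kB type motif was found in 1.63%, TGANTCA in 7.81% and TATAAA in 13.6%. All 8 members had at least 1 window (11 windows in all), and the 3 motifs were found in 2, 4 and 6 members. A member counts here if any of its windows matched, whereas the shares count single windows, so the figures are not alike. The TATAAA match of Il18 began 175 bases before the start and that of Il1rn at base 15 from it, both on the opposite strand. A match describes these letters only.

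Among normal cells the members differed between tissues. All 8 members passed the moderated F test of limma for differences among the 6 tissues, a test that 90.1% of all genes passed. Il6 had the widest range. It averaged 9.78 ± 0.55 and 11.71 ± 0.30 in Prom1-positive and Prom1-negative prostate cells, 9.65 ± 1.10 and 9.57 ± 1.01 in lung cells, and 9.18 ± 0.39 and 9.74 ± 0.39 in uterus cells (mean ± SD). In intestine it averaged 2.66 ± 0.22 and 2.60 ± 0.12, and in stomach 2.87 ± 0.30 and 3.07 ± 0.46, both under the array medians. No sample of prostate, lung or uterus cells lay as low as any sample of intestine, liver or stomach cells. This grouping of tissues follows the Il6 values themselves, and the share of all genes that separate the same tissues was not computed. Tnf was also high in prostate and lung cells, with 8.03 ± 0.84 and 7.42 ± 0.62 in prostate cells, 8.11 ± 1.84 and 7.53 ± 0.64 in lung cells, against 3.95 ± 0.43 and 4.14 ± 0.35 in intestine cells. In uterus the fractions differed, with 8.11 ± 0.62 in positive and 5.48 ± 0.96 in negative cells, and the negative ones overlapped liver cells. Liver cells were mixed for Il6, at 5.67, 2.77, 3.05 and 2.48 in the 4 positive samples, and between 2.55 and 6.62 in the 7 negative samples with a median of 2.97. The negative liver samples with codes lqz140, lqz142 and lqz144 held the 3 highest Il6 values of that fraction, 5.14, 6.62 and 4.72.

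The interleukin-1 genes were also low in intestine and stomach cells. Il1b averaged 5.75 ± 0.79 and 5.44 ± 1.76 in the positive and negative intestine cells and 4.90 ± 0.66 and 4.91 ± 1.36 in stomach cells, whereas lung cells held 10.70 ± 1.68 and 11.65 ± 0.45. Negative liver cells had high Il1a and Il1b without high Il1rn, with averages of 7.94 ± 0.96, 9.96 ± 0.90 and 4.73 ± 0.64 for these genes. In positive liver cells the same genes averaged 5.92 ± 1.21, 6.91 ± 1.73 and 3.68 ± 0.32. Il18 ran differently from the rest. Its mean was 10.55 ± 0.49 and 10.63 ± 0.22 in intestine cells and 10.47 ± 0.81 and 10.73 ± 0.72 in lung cells, and 8.04 ± 0.40 and 8.01 ± 0.41 in prostate cells. Il33 was at 9.02 ± 0.74 in negative prostate cells and 8.54 ± 0.60 in positive stomach cells, and at 3.36 ± 1.08 in positive liver cells. Lif was highest in uterus cells, at 7.61 ± 0.76 and 7.26 ± 0.85, and averaged 3.03 ± 0.29 in negative stomach cells, where Il1a (4.02 ± 0.31) and Tnf (3.60 ± 0.16) also had their lowest means.

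Across all 19 groups the highest mean was in sorted normal cells for 6 members (Il1a, Il1b, Il18, Tnf, Il6 and Lif), and in a tumour type for Il33 (uterine adenocarcinoma, 10.35 ± 1.47) and Il1rn (squamous cell carcinoma of skin, 8.89 ± 0.78). With the groups ordered by mean, most neighbours differed by less than their pooled SD. For Il6 the 2 exceptions among 18 neighbouring pairs were negative over positive prostate cells, with a gap of 1.93, and positive uterus cells over gastric adenocarcinoma, with a gap of 3.90 (9.18 ± 0.39 against 5.28 ± 1.15). For Tnf a gap of 1.86 separated negative prostate cells (7.42 ± 0.62) from B-cell lymphoma (5.56 ± 0.42), the tumour type with the highest Tnf. No pair of neighbours stood apart in this sense for Lif, and 1 pair did for each of Il1a, Il18 and Il33.

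**Figure D1:**
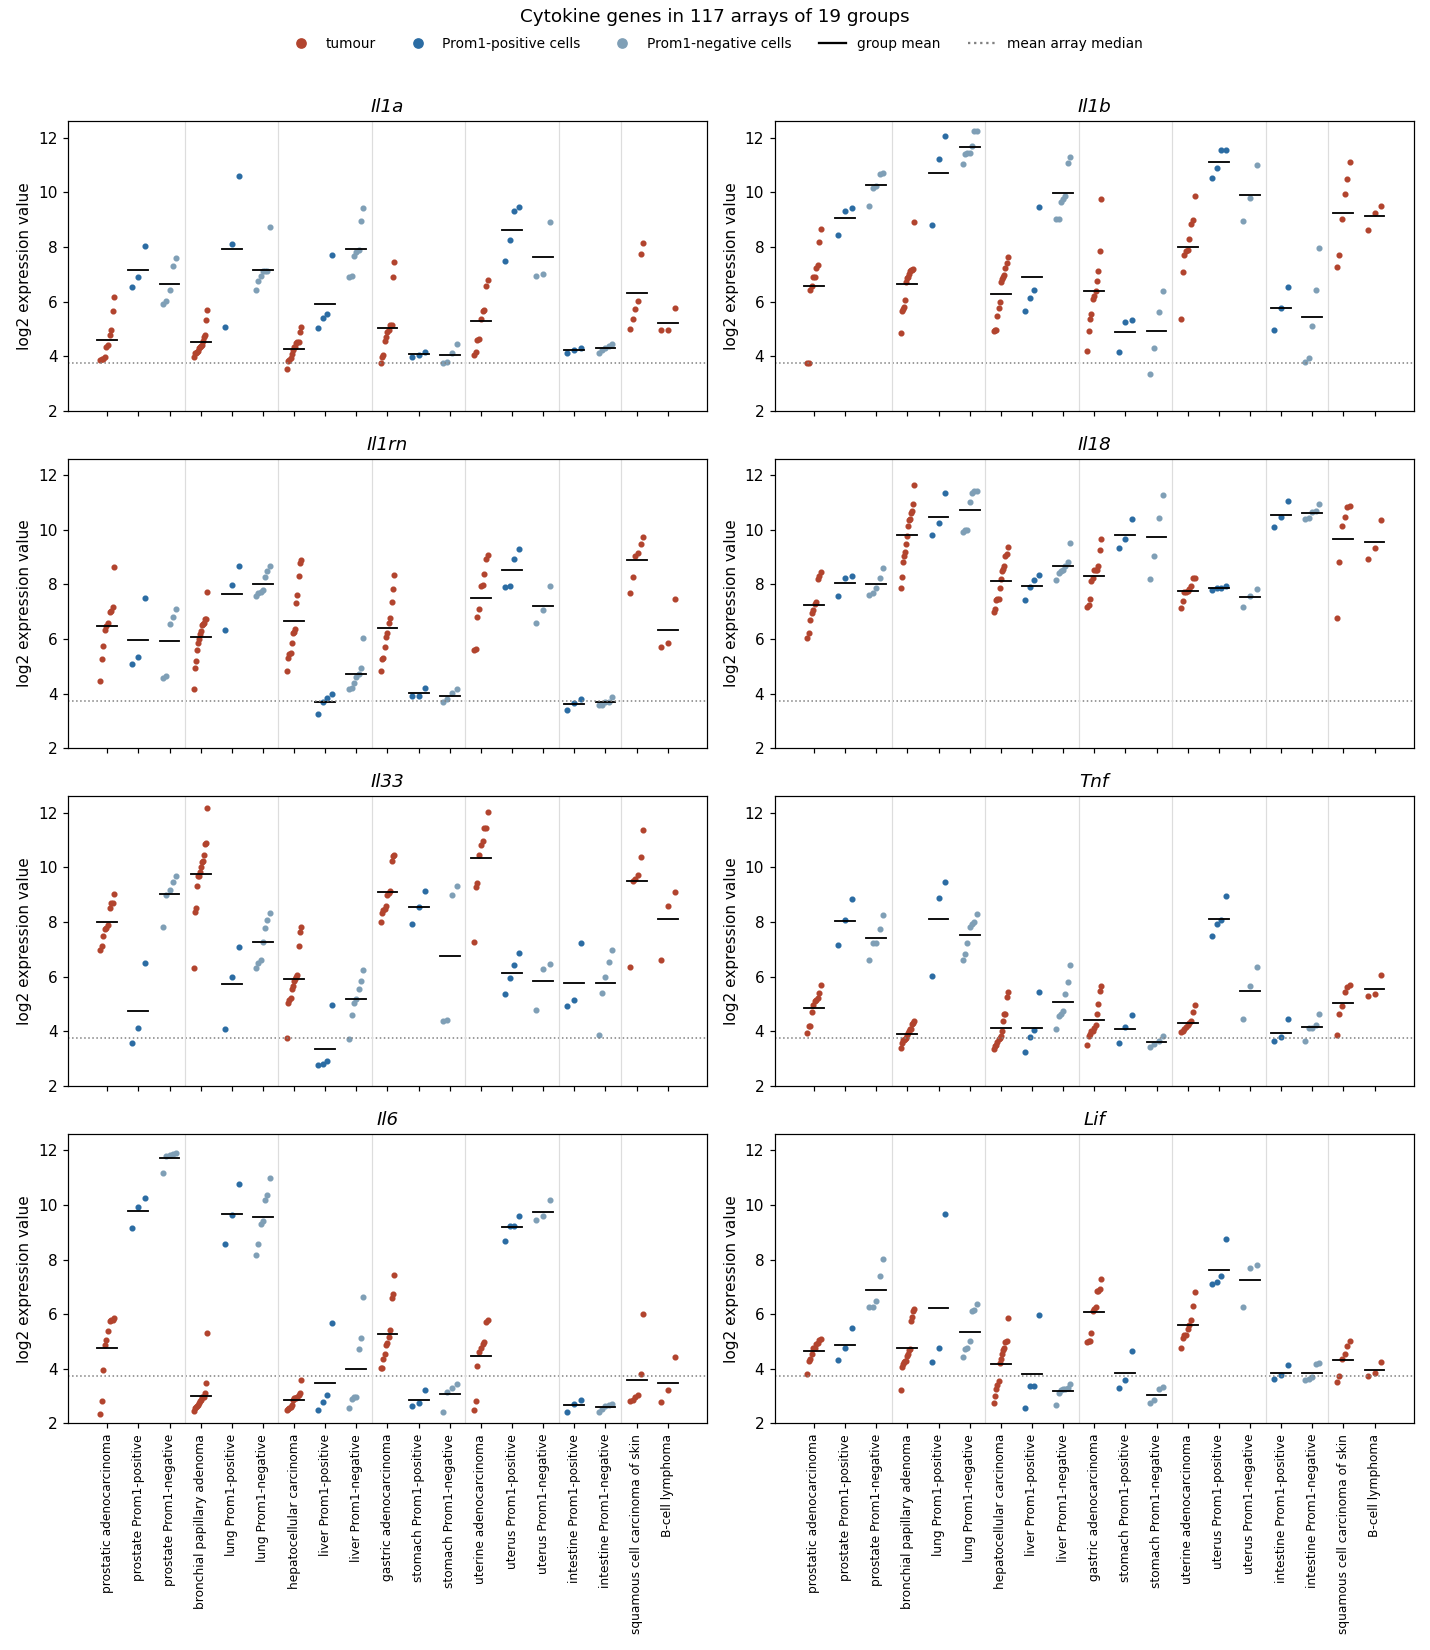
Log2 expression value of each cytokine gene (vertical axis) in the 117 arrays, by group (horizontal axis), with tumours in red, Prom1-positive cells in dark blue and Prom1-negative cells in light blue. Bars are group means and the dotted line is the mean of the array medians. Il6 is high in sorted prostate, lung and uterus cells and lower in the tumours of these organs, Tnf averages 8.11 in positive and 5.48 in negative uterus cells, and Il33 averages 10.35 in uterine adenocarcinoma.

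The sort contrast asks which members differ between the Prom1-positive and the Prom1-negative cells of a tissue. It gave 5 calls among 48 comparisons, each in 1 tissue: Il33 and Il6 were lower in positive prostate cells, Il1a and Il1b were lower in positive liver cells, and Tnf was higher in positive uterus cells. At an unadjusted p under 0.05 there were 10, with 3 in prostate, 5 in liver and 2 in uterus. Of the 14081 genes tested, 2869, 4455 and 2936 reached it in these tissues. The calls are read against all tested genes, of which 9.19% were called in prostate, 20.7% in liver, 10.9% in uterus, 1.51% in lung, 0.199% in intestine and 3.17% in stomach. No member was called in lung, intestine or stomach by limma. None had an unadjusted p under 0.05 there, where 1346, 571 and 2303 of all genes did. With the 6 tissues averaged, none of the 8 members was called, against 13.6% of all genes. An unadjusted p under 0.05 was reached there by 3 members (Il33, Tnf and Il1b) and by 3879 of the 14081 genes. The sort difference itself varied between tissues for Il33, Tnf and Il1b (adjusted p = 0.00346, 0.00898 and 0.0163 in the moderated F test), a test that 21.2% of all genes passed. The Il1b result was lost without the positive liver sample with code lqz226 or lqz246 (adjusted p = 0.0661 and 0.0526) and with blocks of neighbouring sample codes (0.125), and the Tnf result without the negative uterus sample with code lqz337 (0.0554).

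**Figure D2:**
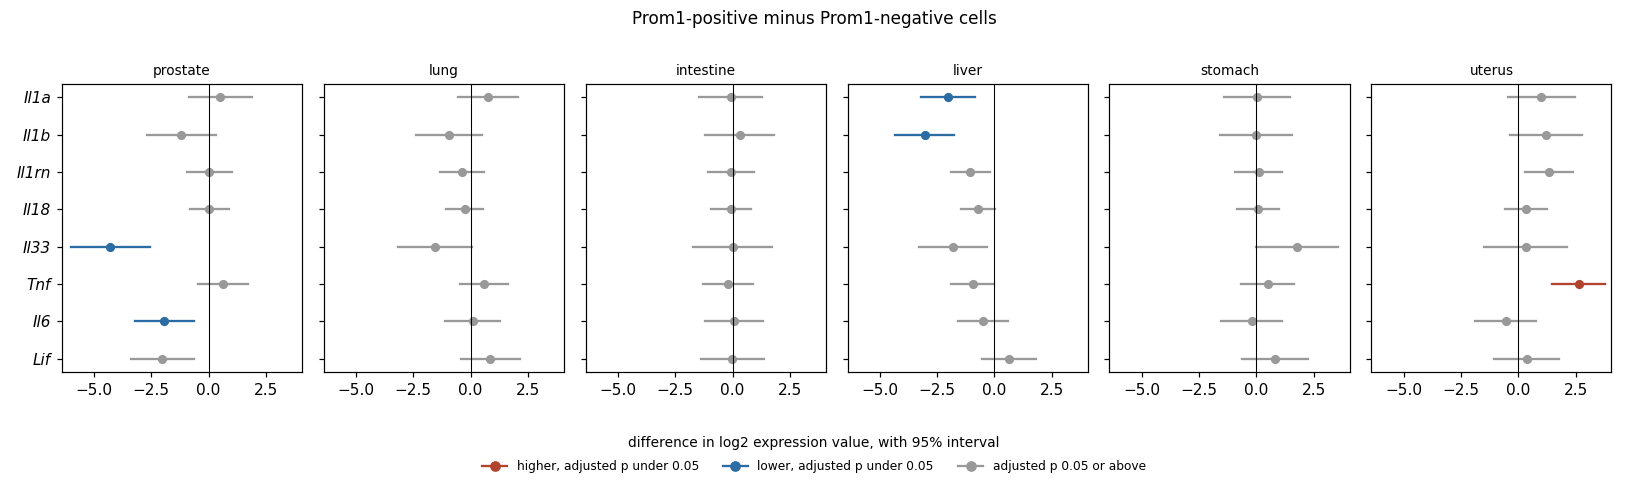
Difference in log2 expression value between Prom1-positive and Prom1-negative cells (horizontal axis) for each cytokine gene (vertical axis) in 6 tissues, with 95% intervals. Blue marks a lower and red a higher value in the positive cells at an adjusted p under 0.05. The 5 coloured points are Il33 and Il6 in prostate, Il1a and Il1b in liver and Tnf in uterus.

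In prostate, Il33 read 6.51, 4.12 and 3.56 in the positive samples, against 7.80, 9.70, 8.99, 9.46 and 9.17 in the negative ones. Every positive sample lay below every negative one, and the difference of -4.29 (SE 0.85, adjusted p = 0.000373) is 19.6-fold. Il6 read 9.93, 9.17 and 10.24 in the positive samples and 11.18, 11.86, 11.89, 11.80 and 11.83 in the negative ones. These did not overlap either, and Il6 was lower by 3.81-fold (-1.93, SE 0.63, adjusted p = 0.0445). Of all genes, 9.08% were lower in the positive prostate cells without overlap, and so were Il1b and Lif, which were not called. The Il6 call was lost, among other settings, with a replicate block by title number (adjusted p = 0.0832) and without any of 7 of the 8 prostate samples, for which the difference stayed between -2.16 and -1.62. Lif averaged 4.86 ± 0.60 in positive and 6.88 ± 0.80 in negative cells, with an adjusted p of 0.0512. Among receptors, Il6st (the gp130 subunit, -2.06, SE 0.44, adjusted p = 0.000951) and Il1r1 (the signalling interleukin-1 receptor, -1.70, SE 0.55, adjusted p = 0.0417) were lower in the positive cells. Of 9 fibroblast marker genes, 5 were lower and none higher, with a median of -1.95 against 0.10 over all genes. The fibroblast markers moved with Il33 and Il6 here, and their part in the result was not tested.

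In liver, Il1b read 9.45, 5.64, 6.42 and 6.12 in the 4 positive samples, and between 9.03 and 11.29 with a median of 9.77 in the 7 negative samples. The difference was -3.05 (SE 0.64, adjusted p = 0.00054), or 8.29-fold. Il1a read 7.70, 5.41, 5.01 and 5.55 in the positive samples, and between 6.89 and 9.43 with a median of 7.81 in the negative ones, a difference of -2.02 (SE 0.59, adjusted p = 0.011). The positive sample with code lqz222 lay inside the negative range for both genes, while the other 3 lay below it. The arrays' upper quartile also moved with the fraction, at 5.96 to 6.02 in the 4 positive and 6.08 to 6.41 in the 7 negative samples. With it as a covariate the differences were -2.97 for Il1b (adjusted p = 0.00133) and -2.30 for Il1a (adjusted p = 0.00468). The macrophage and monocyte list, 12 genes, averaged 9.12 in that sample, 6.58 to 7.12 in the other positive samples and 9.31 to 10.09 in the negative ones. Of these 12 genes 9 were lower in the positive fraction and none higher, with a median of -2.53 against -0.12 over all genes, and Fcgr1, an immunoglobulin receptor gene of macrophages, was furthest apart at -3.62 (SE 0.59, adjusted p = 1.54e-05). Of 6 inflammasome and processing genes 4 were lower, Casp1 (caspase-1) by -2.46 (SE 0.51, adjusted p = 0.000413), and so was Il18bp, the soluble inhibitor of interleukin-18, by -2.64 (SE 0.33, adjusted p = 1.52e-07). The part of the macrophage markers in the Il1a and Il1b results was not tested. Without the sample with code lqz222, 8 rather than 5 member calls were made over the 6 tissues. The Il1a call was lost without the positive sample with code lqz226 (adjusted p = 0.0584) or lqz228 (0.0715).

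In uterus, Tnf read 8.09, 7.91, 8.96 and 7.48 in the 4 positive samples and 4.45, 6.34 and 5.65 in the 3 negative ones. The fractions did not overlap, as for the 16.1% of all genes that were higher there without overlap. The positive cells held 6.18-fold more Tnf (2.63, SE 0.57, adjusted p = 0.0011). The macrophage and monocyte list moved with Tnf: 10 of its 12 genes were higher and none lower, with a median of 3.51 against 0.03 over all genes, and it averaged 10.73 to 11.04 in the positive and 7.40 to 7.98 in the negative samples. Mrc1, the macrophage mannose receptor gene, was furthest apart at 4.20 (SE 0.75, adjusted p = 9.32e-05). Nlrp3, the inflammasome sensor, was also higher (1.97, SE 0.65, adjusted p = 0.0388), as were Tnfrsf1b, the second Tnf receptor (1.78, SE 0.45, adjusted p = 0.00475), and Il6ra, the Il6 receptor (1.66, SE 0.50, adjusted p = 0.0234). The part of these markers in the Tnf result was not tested. Il1rn averaged 8.52 ± 0.70 in positive and 7.20 ± 0.69 in negative cells and missed the threshold (adjusted p = 0.0993).

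The tumour contrast sets each tumour type against the mean of the positive and negative normal cells of its organ. In lung, prostate and uterus tumours Il1a, Il1b, Tnf, Il6 and Lif were lower than in the normal cells, whereas gastric tumours were higher for 6 members. Il33 was higher in 4 of 5 organs and lower in none. Il6 changed most, from 96.8-fold lower in bronchial papillary adenoma to 4.95-fold higher in gastric adenocarcinoma. Some calls were lost in alternatives given below. Among them were Il33 in liver and stomach, Il1a and Il1b in stomach, and Lif in lung and prostate. In all, 29 of 40 comparisons were called, against 42.8% of all comparisons over all genes. The difference varied between organs for all members except Il18 (adjusted p = 0.0653), in a moderated F test that 77.9% of all genes passed. Groups without overlap, named below, are read against all genes too. Of these, 1.90% in lung, 2.88% in prostate and 2.60% in uterus were lower in the tumours without overlap. In uterus 3.36% and in stomach 9.30% were higher without overlap.

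**Figure D3:**
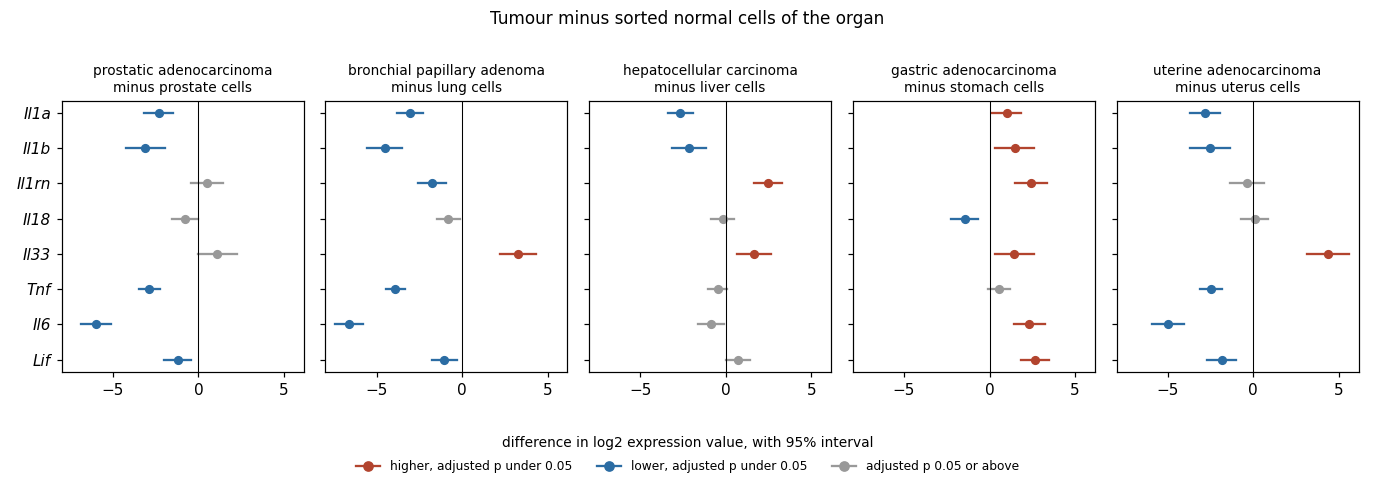
Difference in log2 expression value between each tumour type and the sorted normal cells of its organ (horizontal axis) for each cytokine gene (vertical axis), with 95% intervals. Blue marks a lower and red a higher value in the tumours at an adjusted p under 0.05. Il6 lies at -5.98, -6.60 and -5.00 in prostate, lung and uterus and at 2.31 in stomach, and Il33 lies right of 0 in all 5 organs.

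In bronchial papillary adenoma 6 members were lower and 1 was higher than in lung cells, where 19.7% of all genes were lower and 23.4% higher. Il6 ran between 2.46 and 5.31 with a median of 2.83 in the 14 tumours, against 8.57, 9.62 and 10.77 in positive and 8.15 to 10.99 (median 9.42) in negative lung cells. No tumour reached the lung cells, and only 1 of the 14 lay above its array median, so the difference of -6.60 (SE 0.41, adjusted p = 3.54e-27) can understate the change. Tnf ran between 3.37 and 4.37 in the tumours, with a median of 3.89, against 6.01, 8.86 and 9.46 in positive and 6.6 to 8.28 in negative cells. This is a difference of -3.92 (SE 0.28, adjusted p = 1.02e-22) without overlap. Il1b was 22.9-fold lower (-4.52, SE 0.52, adjusted p = 1.5e-12) and its antagonist Il1rn 3.40-fold lower (-1.76, SE 0.42, adjusted p = 0.000303). Il33 was 9.61-fold higher (3.26, SE 0.52, adjusted p = 1.17e-07), at 6.31 to 12.17 with a median of 9.92 in the tumours, against 5.99, 7.07 and 4.07 in positive and 6.32 to 8.34 in negative cells, with some overlap. The Lif call rested on the positive lung sample with code lqz220, whose Lif value was 9.66: with it the difference was -1.03 (adjusted p = 0.0163), and without it -0.17 (adjusted p = 0.778). Among receptors, Il1r2, the interleukin-1 decoy receptor, was lower by -3.88 (SE 0.54, adjusted p = 1.85e-09) and Il18r1, a subunit of the Il18 receptor, was higher by 2.29 (SE 0.38, adjusted p = 2.62e-07). Of 21 genes for signalling and feedback 17 were lower and 1 was higher, with a median of -1.29, and Nfkbiz, which encodes a nuclear regulator of NF-kB target genes, was furthest apart at -4.37 (SE 0.33, adjusted p = 6.86e-22). Of 12 macrophage genes 7 were lower and none higher, with a median of -1.47 against 0.00 over all genes.

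In prostatic adenocarcinoma 5 members were lower and none was higher than in prostate cells, where 15.8% of all genes were lower and 20.9% higher. Il6 ran between 2.36 and 5.86 with a median of 5.23 in the 10 tumours, all below the lowest prostate cell sample at 9.17 (-5.98, SE 0.45, adjusted p = 1.83e-21). Tnf was 7.32-fold lower (-2.87, SE 0.31, adjusted p = 4.4e-13), also without overlap. Il1b was 8.54-fold and Il1a 4.99-fold lower. Il33 averaged 7.99 ± 0.71 in the tumours and lay between the 2 fractions (positive 4.73 ± 1.57, negative 9.02 ± 0.74). Against both together it was not called (1.11, SE 0.58, adjusted p = 0.125), while it was with only prostate samples in the fit (adjusted p = 0.024) and against the positive cells alone (3.26, adjusted p = 0.000938). The Lif call was lost against the positive cells alone (-0.21, adjusted p = 0.846) and without the positive sample with code lqz133 (adjusted p = 0.057). Nlrp3 fell by 2.42 (SE 0.31, adjusted p = 2.5e-10).

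In uterine adenocarcinoma 5 members were lower and 1 was higher than in uterus cells, where 12.4% of all genes were lower and 16.4% higher. Il33 ran between 7.26 and 12.02 with a median of 10.82 in the 9 tumours, against 6.42, 6.85, 5.95 and 5.35 in positive and 6.47, 6.26 and 4.76 in negative uterus cells. The groups did not overlap, and the tumours held 20.6-fold more (4.36, SE 0.61, adjusted p = 7e-09). Il6 ran between 2.47 and 5.79 in the tumours and between 8.67 and 10.18 in the normal samples, a 32.1-fold lower level without overlap (-5.00, SE 0.47, adjusted p = 1.06e-15). Il1a was 7.16-fold lower (-2.84, SE 0.45, adjusted p = 2.2e-07), again without overlap. Il1rn did not follow Il1a and Il1b: it averaged 7.49 ± 1.30 in the tumours, with 8.52 ± 0.70 in positive and 7.20 ± 0.69 in negative cells, and was not called. Of the receptors, Il6ra (-2.32, SE 0.33, adjusted p = 1.78e-08) and Il6st (-1.36, SE 0.30, adjusted p = 0.000157) were lower. The Il1b call was lost against the negative cells alone (-1.93, adjusted p = 0.0662).

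In hepatocellular carcinoma 2 members were lower and 2 were higher than in liver cells, where 18.0% of all genes were lower and 29.2% higher. Il1a fell by 2.66 (SE 0.37, adjusted p = 3.25e-09) and Il1b by 2.14 (SE 0.50, adjusted p = 0.000186). Against the positive liver cells alone the Il1b difference was -0.62 (adjusted p = 0.507). Il1rn moved the other way, 5.52-fold higher (2.46, SE 0.41, adjusted p = 3.18e-07): it ran between 4.84 and 8.90 with a median of 6.25 in the tumours, against 3.69, 3.82, 3.24 and 3.97 in positive and 4.18 to 6.04 in negative liver cells. Every tumour exceeded every positive sample, and the tumours overlapped the negative ones. The share of all genes that exceeded the positive samples alone in this way was not computed. Against both fractions 1.75% of all genes were higher without overlap, and Il1rn was not among them. Il33 was 3.12-fold higher (1.64, SE 0.50, adjusted p = 0.00461), a call that was lost against the negative cells alone (0.74, adjusted p = 0.316) and with the array's upper quartile as a covariate (1.08, adjusted p = 0.0984). The gp130 receptor genes Il6st, Il6ra and Lifr were lower, Il6st by -2.14 (SE 0.25, adjusted p = 4.51e-12). Of 12 macrophage genes 6 were lower and 1 was higher.

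In gastric adenocarcinoma 6 members were higher and 1, Il18, was lower than in stomach cells, where 35.0% of all genes were higher and 23% lower. Repeating the quantile normalization moved the median of all genes from 0.11 to -0.07 in this comparison, and the share of calls that were higher from 60.3% to 47.2%. Lif ran between 5.0 and 7.27 with a median of 6.19 in the 11 tumours, against 3.28, 4.64 and 3.58 in positive and 2.73, 3.25, 3.31 and 2.84 in negative stomach cells. The groups did not overlap (2.64, SE 0.41, adjusted p = 3.3e-08), and only 1 of the 7 normal samples lay above its array median for Lif. Il6 ran between 4.01 and 7.42 in the tumours and between 2.41 and 3.43 in the normal samples (2.31, SE 0.45, adjusted p = 7.51e-06), which lay under their array medians. Il1rn was 5.38-fold higher, also without overlap (2.43, SE 0.47, adjusted p = 6.14e-06). Il18 averaged 8.31 ± 0.78 in the tumours, against 9.80 ± 0.55 in positive and 9.74 ± 1.37 in negative stomach cells (-1.46, SE 0.39, adjusted p = 0.000784). The calls of Il1a, Il1b and Il33 were less secure. All 3 were lost with repeated quantile normalization (adjusted p = 0.142, 0.0685 and 0.0611) and when only stomach samples were fitted. Leaving out the 6 arrays with an upper quartile under 6, of which 3 are stomach samples, also ended all 3 calls (adjusted p = 0.0985, 0.29 and 0.277). So did leaving out the gastric tumour with code lqz013 (adjusted p = 0.118, 0.0769 and 0.051). The Il33 call was lost in 7 of 14 settings. Its difference was 0.14 with the array's upper quartile as a covariate (adjusted p = 0.906). Against the positive cells alone it was 0.57 (adjusted p = 0.588), and with array weights 0.67 (adjusted p = 0.365). Cell type and signalling lists were higher too: all 12 macrophage genes (median 3.68), 8 of 9 fibroblast genes (median 3.69) and 14 of 21 signalling and feedback genes (median 0.92), with none lower in these 3 lists. Saa3, an acute-phase gene, differed by 5.63, Il1r2 by 3.92 (SE 0.60, adjusted p = 2.38e-08), Il1r1 by 2.68 (SE 0.40, adjusted p = 1.28e-08) and Il6st by 2.02 (SE 0.29, adjusted p = 2.28e-09). The part of the macrophage and fibroblast markers in the member results was not tested.

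Averaged over the 5 organs, 5 members were lower (26.8% of all genes) and 2 were higher (39% of all genes). Il6 was lowest relative to the normal cells at -3.23 (SE 0.19, adjusted p = 5.51e-28), followed by Il1b at -2.16, Il1a at -1.97, Tnf at -1.84 and Il18 at -0.63. Il33 was higher by 2.37 (SE 0.25, adjusted p = 3.52e-14) and Il1rn by 0.66 (SE 0.20, adjusted p = 0.00328), and Lif was not called. These means hide differences between organs: Il1rn was lower in lung tumours (-1.76) and not called in uterine ones (-0.37). Il6 was higher in gastric tumours, and so were Il1a and Il1b, whose gastric calls were lost in 6 and 8 of 14 settings.

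Immediate early genes such as Fos, Jun and Egr1 are switched on within minutes of a stimulus and are known to respond to tissue dissociation. The mean of 13 listed genes of this kind ran from 10.27 to 11.67 in prostate, lung and uterus cells, from 7.74 to 9.90 in intestine, liver and stomach cells, and from 5.74 to 8.83 in the tumours. The 3 tissues with the highest list means were those with high Il6. Negative uterus cells, which are among them, had Tnf values of 4.45, 6.34 and 5.65. Against the normal cells, all 13 were lower in bronchial papillary and uterine tumours (median -3.06 and -3.32), 12 in prostatic tumours (-3.02), 11 in hepatocellular tumours (-1.84) and 9 in gastric tumours (-1.52), with 1 higher in hepatocellular and 2 in gastric tumours. Among the 7 negative liver samples, those with codes lqz140, lqz142 and lqz144 had the 3 highest list means, 9.67, 9.90 and 9.0, and the 3 highest Il6 values. The list's part in the cytokine results was not tested, and handling and tumour state cannot be told apart here.

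**Figure D4:**
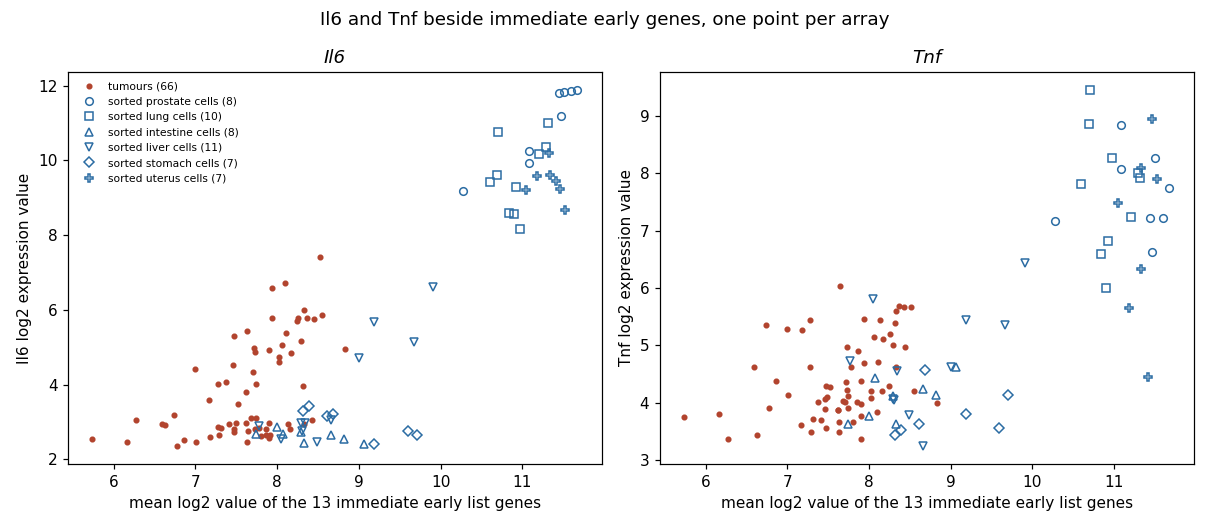
Log2 expression value of Il6 (left) and Tnf (right) on the vertical axes against the mean log2 value of 13 immediate early genes on the horizontal axes, 1 point per array, with tumours in red and sorted cells in blue by tissue. Prostate, lung and uterus cells have list means of at least 10.27 and Il6 values of at least 8.15, while no tumour exceeds 8.83 and 7.42.

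All tumours were frozen whole, so the tumour types can be compared without that difference in handling. All 8 members differed among the 7 types (moderated F test), as did 95.1% of all genes. Each type was then set against the mean of the other 6, which gave 28 calls among 56 comparisons, close to the 47.4% over all genes. These comparisons share samples, since each type is part of the reference of the others.

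**Figure D5:**
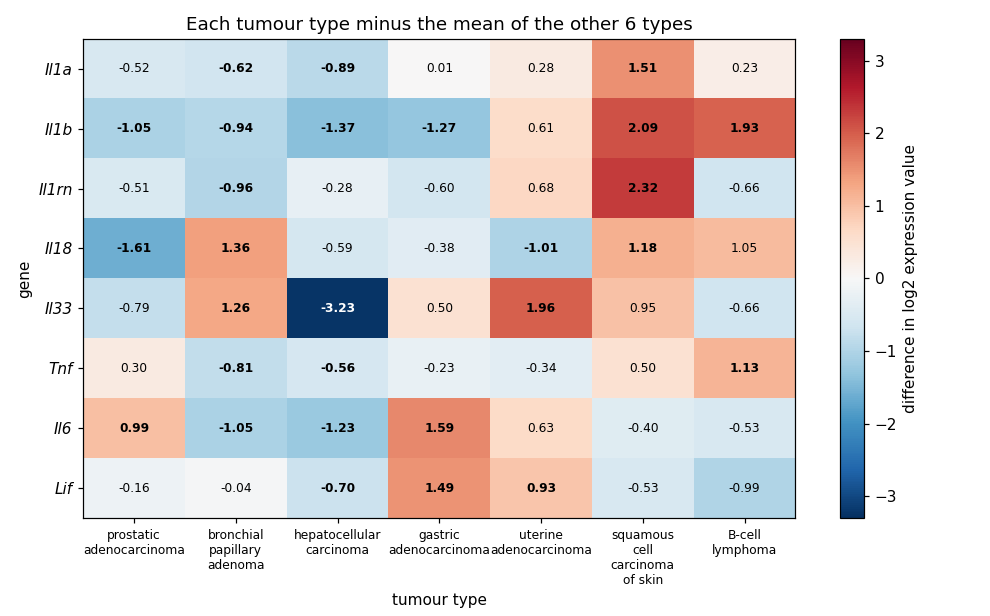
Difference in log2 expression value between each tumour type (horizontal axis) and the mean of the other 6 types for each cytokine gene (vertical axis), from blue (lower) to red (higher), with values in bold at an adjusted p under 0.05. Squamous cell carcinoma of skin is higher for Il1a, Il1b, Il1rn and Il18, and the lowest value is Il33 in hepatocellular carcinoma at -3.23.

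Squamous cell carcinoma of skin was higher for 4 members, where 19.2% of all genes were higher. Il1rn ran between 7.69 and 9.75 with a median of 9.09 in its 6 tumours and was higher than in the other types by 2.32 (SE 0.48, adjusted p = 7.75e-05). Il1b was higher by 2.09 (SE 0.54, adjusted p = 0.00138), Il1a by 1.51 (SE 0.36, adjusted p = 0.000459) and Il18 by 1.18 (SE 0.39, adjusted p = 0.0124). The Il18 call was lost without the tumour with code lqz052, lqz068 or lqz210 (adjusted p = 0.0548, 0.0727 and 0.074). The other interleukin-1 ligands moved the same way: all 3 tested genes of that list were higher, with a median of 4.59, and Il1f6 (interleukin-36 alpha) by 4.88. All 10 keratinocyte genes were higher, with a median of 6.53, as were 4 of 11 neutrophil genes, while 9 of 12 macrophage genes were lower. B-cell lymphoma was higher for 2 members, where 24.3% of all genes were higher: Il1b at 8.63, 9.24 and 9.50 (1.93, SE 0.74, adjusted p = 0.0278) and Tnf at 5.28, 5.36 and 6.04 (1.13, SE 0.33, adjusted p = 0.00365). With 3 lymphomas, the Il1b call was lost without any 1 of them (adjusted p = 0.0553, 0.1 and 0.123). Tnf was no longer called without the lymphoma with code lqz273 (adjusted p = 0.071).

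Gastric adenocarcinoma was called for 3 members, against 47.9% of all genes: Il6 was 3.01-fold and Lif 2.81-fold higher than in the other types (1.59, SE 0.32, adjusted p = 4.51e-05, and 1.49, SE 0.26, adjusted p = 2.07e-06), and Il1b was lower. Prostatic adenocarcinoma was called for 3 members, against 41.8% of all genes, with Il6 higher (0.99, SE 0.34, adjusted p = 0.0144) and Il1b and Il18 lower, Il18 by 3.05-fold. The prostatic Il1b call (adjusted p = 0.0491) was lost without any of many single tumours. In uterine adenocarcinoma 3 members were called, against 29.8% of all genes: Il33 (1.96, SE 0.44, adjusted p = 0.000392) and Lif (0.93, SE 0.28, adjusted p = 0.0076) were higher and Il18 was lower (-1.01, SE 0.33, adjusted p = 0.0165). Bronchial papillary adenoma had 7 calls, against 58.1% of all genes, with Il18 (1.36, SE 0.28, adjusted p = 3.53e-05) and Il33 (1.26, SE 0.37, adjusted p = 0.00261) higher and Il1a, Il1b, Il1rn, Tnf and Il6 lower. The bronchial Il1b call was lost without the lymphomas (-0.64, adjusted p = 0.151) and without any 1 of 5 bronchial tumours (adjusted p up to 0.075), and the Il1a call with all 117 samples in the fit (0.0506) and without any 1 of 3 tumours (up to 0.0552). In hepatocellular carcinoma 6 members were lower, against 41.3% of all genes, and Il33 was the furthest from the other types at 9.39-fold lower (-3.23, SE 0.38, adjusted p = 3.71e-11): it ran between 3.76 and 7.82 with a median of 5.85 in 13 tumours. The Tnf call among these 6 was lost with array weights (-0.31, adjusted p = 0.125) and without the lymphomas (0.0531), and without them the gastric and prostatic Il1b calls were lost too (0.0549 and 0.176). None of the 13 hepatocellular carcinomas had an Il6 value above its array median, whereas all 11 gastric tumours did.

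Some members varied together within tumour types, though no share over all gene pairs was computed to set beside the counts. After each type's mean was removed, 17 of the 28 member pairs were positively correlated over the 66 tumours by r at an adjusted p under 0.05 and none negatively (two-sided permutation within types, Benjamini-Hochberg over the 28 pairs). The strongest was Il1b with Tnf (r = 0.59, p = 1e-05, the smallest the permutations can give, adjusted p = 0.00014; rho = 0.56, p = 4e-05). Its r was 0.52 without the 2 tumours with the most extreme Il1b, and within types it was above 0 in 5 of 6, from -0.07 in bronchial papillary adenoma to 0.90 in squamous cell carcinoma. In the 14 bronchial papillary adenomas Il1b had an r under 0 with 6 of the 7 other members, down to -0.51 with Il18, -0.45 with Lif and -0.44 with Il1rn. One of these tumours, with code lqz015, held their highest Il1b (8.90) and their lowest Il1rn (4.18), Il18 (7.87), Il33 (6.31), Tnf (3.37) and Lif (3.23). The r values within this type were not computed without it, so they may rest on that tumour. Il1a with Il1b had r = 0.58 (adjusted p = 0.00014; rho = 0.46, p = 0.00041), and 0.52 without 2 tumours. Il1b with Il6 had r = 0.58 (p = 3e-05, adjusted p = 0.00028; rho = 0.45, p = 0.00055), 0.48 without 2 tumours, and was above 0 in all 6 types of at least 6 tumours, from 0.17 to 0.86. Il18 stood apart: of its 7 pairs only that with Tnf was called (r = 0.29, p = 0.0268, adjusted p = 0.0441; rho = 0.34, p = 0.00873), and its r with Lif was -0.24 (p = 0.0617, adjusted p = 0.0864; rho = -0.29, p = 0.0226, adjusted p = 0.0372), below 0 by rho after adjustment but not by r.

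Of 48 pairs of a member and a cell marker list, 10 were positively correlated over the same tumours by r and none negatively (adjusted over the 48). The share of all genes that go with these lists was not computed either. Il1b went with the neutrophil list (r = 0.57, p = 1e-05, adjusted p = 0.00024; rho = 0.60, p = 1e-05), and its r was 0.56 without 2 tumours and between 0.56 and 0.90 in each of the 6 types. It also went with the macrophage list (r = 0.50, p = 3e-05, adjusted p = 0.00048; rho = 0.52, p = 6e-05), with 0.47 without 2 tumours and 0.07 to 0.79 within types. Il18 went with the T and NK cell list (r = 0.41, p = 1e-05, adjusted p = 0.00024; rho = 0.43, p = 2e-04), with 0.46 without 2 tumours and 0.34 to 0.75 within types. Lif went with the epithelial list (r = 0.45, p = 0.00013, adjusted p = 0.00156; rho = 0.52, p = 0.00012), at -0.01 to 0.96 within types. Tnf went with the same list (r = 0.46, p = 0.00145, adjusted p = 0.0139; rho = 0.47, p = 0.00047), at 0.27 to 0.59 within types. Il6 went with the fibroblast list (r = 0.37, p = 0.00662, adjusted p = 0.0405; rho = 0.30, p = 0.0238), at 0.24 to 0.52 within types, and with the macrophage list (r = 0.36, p = 0.00273, adjusted p = 0.0218; rho = 0.29, p = 0.0198), at 0.06 to 0.60. By rho neither Il6 relation held after adjustment (adjusted p = 0.0714 for both). The same was so for Il1rn with the epithelial list and Tnf with the T and NK cell list, also among the 10 (adjusted p = 0.0714 by rho).

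Finally, the genes whose 19 group means ran most like each member's were listed, over 12827 genes. These correlations describe group means that share arrays and handling, so no p is given. Tnf was most like Nlrp3 (r = 0.965), Ccrl2 and the chemokine gene Ccl3 (both r = 0.949). Il6 was most like the immediate early nuclear receptor gene Nr4a3 (r = 0.957), the chemokine gene Ccl7 (r = 0.951) and the laminin gene Lama2 (r = 0.95). Il1a was most like Il1b (r = 0.913), Pltp and Slc9a9, and Il1b most like Kctd12, the kinase gene Map3k8 and Pltp (r = 0.93, 0.929 and 0.929). For Lif these were Htra3, the collagen gene Col6a2 and Creb5 (r = 0.911, 0.905 and 0.9), and for Il1rn Diaph2, the chemokine receptor gene Ccr1 and Nuak1 (r = 0.913, 0.901 and 0.896). Il18 and Il33 had no gene as close: Il18 was nearest to Myl7 (r = 0.843), Fam183b and Atp2a3, and Il33 to Nt5e (r = 0.835), Pmm1 and Aldoa.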

How the data were processed

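Expression was measured on 117 Affymetrix arrays. The values analysed are the log2 expression values of 45141 probe sets that the authors deposited. They were made with RMA and Partek 6.6, per the submitters' processing notes, with settings not given in the sources used here. Affymetrix probe sets were named through GEO's platform annotation: 28898 had 1 gene, 551 several and 15692 none in that table. Per gene the single-gene probe set with the highest mean was kept. The members and gene lists were chosen with earlier results of these data known. Genes above the array median in at least 3 arrays of a fit were tested, 14081 for the sort contrast, 14663 for tumours against normal cells and 13456 among tumours, and all 8 members passed. Models of group means were fitted with limma 3.58.1 (R 4.3.3), with Benjamini-Hochberg adjustment over all genes and a threshold of 0.05. The fits were tested on simulated data. The genes named are the members, receptors, Casp1 and Nlrp3, the genes with the largest or smallest called difference of a list, and the 3 genes most like each member whose group means span at least 1. Alternatives changed the probe set rule, the filter, the scaling, the array weights and the samples. Of 19 sample pairs across fractions that share a title number, 7 had residuals correlated above 0.1 (from -0.344 to 0.59), so the numbers were not taken as pairs. Precision is limited by the number of arrays, from 3 to 14 per group. Some listed genes without a single-gene probe set were not analysed here.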

Additional observations from a re-analysis of the deposited data

Results flagged for a closer look

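Each group of 4 to 10 samples was searched for a sample far from the others by Dixon's criterion, 80 combinations of gene and group in all, and 7 were found, where chance gives about 1 in 20. In the negative lung cells the sample with code lqz219 had an Il1a value of 8.72, with 7.13 as the nearest. In the negative liver cells the sample with code lqz142 had an Il1rn value of 6.04, with 4.95 as the nearest, and the sample with code lqz144 a Lif value of 2.68, with 3.13 as the nearest. The positive liver sample with code lqz222 had an Il33 value of 4.97, with 2.90 as the nearest. In squamous cell carcinoma of skin the tumour with code lqz052 had an Il33 value of 6.34, with 9.52 as the nearest. The tumour with code lqz068 had an Il6 value of 6.00, with 3.81 as the nearest. The negative prostate sample with code lqz109 had an Il6 value of 11.18, with 11.80 as the nearest.

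The difference between Prom1-positive and Prom1-negative cells varied among the 6 tissues for Il1b (adjusted p = 0.0163), Il33 (0.00346) and Tnf (0.00898) in limma's moderated F test. Of all genes, 21.2% passed it. The Il1b and Tnf results were lost without some single samples, and that of Il1b also with blocks of neighbouring sample codes, as given above. The difference between tumours and normal cells varied among the 5 organs for Il1a (adjusted p = 2.85e-09), Il1b (2.54e-09), Il1rn (3.34e-10), Il33 (0.000661), Tnf (1.07e-17), Il6 (2.64e-27) and Lif (3.09e-11) in the moderated F test. Here 77.9% of all genes passed.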

How the results depend on the processing

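No called member value changed direction in any alternative. Of 95 called values, 75 kept their call throughout, 15 lost it in at least 1 setting and 15 without at least 1 sample. The 5 sort calls in 6 tissues became 9 with array weights, 8 without the arrays with an upper quartile under 6, 8 with blocks of neighbouring sample codes and 10 with only the samples of the tissue, and 4 to 8 with 1 sample left out. The sort contrast averaged over tissues, with 0 calls, gave 3 with array weights, and 1 without the arrays with an upper quartile under 6, without the stomach negative sample with code lqz239, and with all 117 samples in the fit, and 0 to 1 with 1 sample left out. The 3 sort interactions became 7 with array weights, and 5 without the arrays with an upper quartile under 6, with the upper quartile as a covariate, and with all 117 samples, and 2 to 5 with 1 sample left out. The 29 tumour calls ranged from 25 to 30 over settings and from 27 to 30 with 1 sample left out, the 7 averaged over organs from 7 to 8 and 7 to 7, the 7 organ interactions from 7 to 8 and 7 to 8, and the 28 tumour type calls from 24 to 34 and 24 to 29. Tests among 6 tissues kept 8, and among 7 tumour types 7 to 8, with 8 to 8 without 1 sample. Title numbers were not taken as pairs (7 of 19 pairs correlated above 0.1). This check cannot show which samples share an animal. With a replicate block by title number there were 4 calls in 6 tissues, 0 over tissues and 4 interactions. Samples with neighbouring codes, which the labels do not call pairs, correlated above 0.1 in 10 of 13 pairs (from -0.093 to 0.494). Blocks of these gave 8, 0 and 3 calls, and the Il1b interaction was lost (adjusted p = 0.125). Where a group lay under the array median, as for Il6 in intestine, stomach and most bronchial tumours, differences are bounded by background signal. The cause of the lost calls was not tested.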
